A study of Mus musculus with 8 samples.

Results

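A set of 40 genes of the cell cycle and of DNA replication were followed in mouse peritoneal macrophages, the phagocytes of the abdominal cavity, that had been exposed to LECT2 (leukocyte cell-derived chemotaxin 2, which hepatocytes secrete into blood). The 40 genes were listed by name, and each was represented by the brightest array probe whose accession in the scanner files belongs to a RefSeq transcript of that gene. They comprise 11 genes of the G1 phase (D and E cyclins, their kinases, the inhibitors Cdkn1a and Cdkn1b, and E2f1), 10 replication genes and 19 genes of G2 and mitosis. All 40 were on the array, and all 40 passed the filter on dim probes that left 26123 genes to test, 16730 of them with a symbol.

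Cells were taken from the peritoneum of mice, plated in medium with 20% serum and kept with LECT2 at 0.5 µg/ml (low dose) or 5 µg/ml (high dose), or with none (control), for 48 h or 3.5 h. Strain, genotype, age and sex of the mice are not given in the sources used here, nor is the source of the LECT2. RNA was hybridised to 8 Agilent arrays of 2 colours, each with a LECT2 sample in Cy3 and a control sample of the same time in Cy5, without a dye swap. The 4 groups (each dose at 48 h and each dose at 3.5 h) hold 2 arrays each, from 2 independent experiments with different mice. Whether both doses were set against the same control RNA is not given in the sources used here. For the early time, titles say 3.5 h but channel labels 3 h, and 3.5 h is used here.

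The cell division cycle is driven by cyclin-dependent kinases, enzymes that work only when bound to a cyclin. D cyclins with Cdk4 or Cdk6, and then E cyclins with Cdk2, take a cell out of G1, whereas p21 (Cdkn1a) and p27 (Cdkn1b) restrain these kinases. In S phase the Mcm2 to Mcm7 proteins form the ring-shaped helicase that opens DNA for copying, Pcna is the sliding clamp of the polymerases, and ribonucleotide reductase (Rrm1, Rrm2) and thymidylate synthase (Tyms) supply nucleotides. Cdk1 with A and B cyclins then starts mitosis, in which Plk1 and the Aurora kinases, the centromere histone Cenpa and the checkpoint genes Bub1 and Bub1b take part. Resident peritoneal macrophages are known to keep up their number partly by dividing in place.

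Promoters of cell cycle genes are known for short shared motifs, and 4 of them are shown because their genes carry the results below: Cdk1 and Mki67, both mitotic but of opposite direction at the high dose, Cenpa, and Mcm5 for replication. The stretches are the 150 bases before the RefSeq transcription start in build GRCm38.p6, read 5′ to 3′ on the strand of the gene: chr10:69352913-69353062 on the minus strand for Cdk1, chr7:135716380-135716529 on the minus strand for Mki67, chr5:30666736-30666885 on the plus strand for Cenpa and chr8:75109359-75109508 on the plus strand for Mcm5. Capitals mark the cell cycle homology region (CHR, TTTGAA), the CCAAT box (CCAAT, or ATTGG where it lies on the other strand) and the E2F motif (TTTGGCGC or TTTCCCGC), each searched on both strands. No marked motif overlaps another.
Cdk1: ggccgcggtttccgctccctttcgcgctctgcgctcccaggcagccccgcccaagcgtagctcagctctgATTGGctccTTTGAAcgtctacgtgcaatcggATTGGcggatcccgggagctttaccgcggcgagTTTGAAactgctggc
Mki67: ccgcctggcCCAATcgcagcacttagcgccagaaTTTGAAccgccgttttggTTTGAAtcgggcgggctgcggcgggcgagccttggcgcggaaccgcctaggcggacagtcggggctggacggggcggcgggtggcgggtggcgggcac
Cenpa: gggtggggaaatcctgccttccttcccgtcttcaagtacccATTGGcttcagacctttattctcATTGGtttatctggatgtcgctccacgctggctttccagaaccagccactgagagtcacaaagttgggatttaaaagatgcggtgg
Mcm5: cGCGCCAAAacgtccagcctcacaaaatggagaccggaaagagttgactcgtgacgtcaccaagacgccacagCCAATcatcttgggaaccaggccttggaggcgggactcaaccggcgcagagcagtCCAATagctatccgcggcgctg

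Cdk1 held 2 CHR motifs, from 71 to 66 and from 15 to 10 bases before the start, and 2 CCAAT boxes. Mki67 held 2 CHR motifs as well, from 116 to 111 and from 98 to 93 bases before the start, with 1 CCAAT box. The Cenpa stretch held 2 CCAAT boxes, its CHR lying outside it, and that of Mcm5 held 2 CCAAT boxes and an E2F motif from 149 to 142 bases before the start. RefSeq promoters (250 bases before to 50 after the start) were matched for 33 of the 40 genes, those of Aurkb, Ccna2, Ccnd1, Ccnd2, Ccne2, Cdc25c and Mcm4 being the 7 others. A CHR was found in 11 of 16 mitosis genes, 1 of 9 replication genes and 0 of 8 G1 genes, against 20.2% of the 27025 genes with a promoter in the table. CCAAT boxes were found in 15 of 16 mitosis genes, 8 of 9 replication genes and 3 of 8 G1 genes, against 41.1% of all genes. The E2F motif was found in 0 of 16, 4 of 9 (Mcm3, Mcm5, Mcm6 and Mcm7) and 1 of 8 (Cdk2), against 1.8% of all genes. These matches are descriptions of letters and do not show that a factor binds.

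Values below are log2 of LECT2 over control, the deposited value of each array with its sign reversed, because the deposited values are control (Cy5) over LECT2 (Cy3), opposite to the wording of the titles. Means are over 2 arrays, with the standard error from limma. A gene is said to have risen or fallen where its Benjamini-Hochberg adjusted p from limma, over all 26123 genes, was under 0.05. LECT2 always carried the same dye, so a gene's dye bias and its LECT2 effect cannot be told apart. These are cultures measured in bulk, so fewer cells of a type and less RNA per cell cannot be told apart either.

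Some properties of the arrays touch every result. Spots well above background made up 56.4% to 71.7% for LECT2 and 63.6% to 82.3% for the control, and the 2 arrays of a group correlated across genes at r = 0.35 and 0.62 at 48 h and r = 0.41 and 0.72 at 3.5 h (in the order low dose, high dose). The median standard error over all genes was 0.28 for an effect. In 7 of the 8 arrays the deposited values match a scanner file that is recorded under another sample, and with the files taken as recorded limma called 0 of the 40 genes in each comparison. All results therefore rest on the labels of the deposited values. In the files matched by their ratios, 1 slide holds all 48 h arrays and the other all 3.5 h arrays, so time and slide cannot be told apart. Processing of the deposited values differed between the times as well. Among probes above background throughout, 99.6% equalled the ratio of their matched file within 0.01 on each 48 h array. On the 3.5 h arrays only 4.5% to 16.1% did. Differences between the times in deposited values are thus also differences in processing. The deposited values of the low dose at 3.5 h, replicate 1, repeat a log2 of 2.31 for 4530 probes, among them Ccne2, Aurkb and Kif11, and follow their file at r = 0.81 only. Without these repeated values 6 of the 40 genes were called at the low dose and 3.5 h, against 5 with them.

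At the high dose after 48 h, 12 of the 40 genes passed the threshold, 1 higher (Mki67) and 11 lower (Ccnd1, Cdk4, Cdkn1a, Mcm2, Mcm5, Mcm7, Cdk1, Top2a, Cenpa, Bub1b and Plk1), while 11.2% of all genes tested passed it, 4.3% higher and 6.92% lower. Of the 40 genes 34 were below 0 on both arrays, against 35.9% of all genes, and their median log2 was -0.86, against -0.01 over all genes. Without replicate 1 of this group 0 of the 40 were called, and 22 had an unadjusted p under 0.05. Without replicate 2 there was 1, Cenpa.

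After 48 h at the low dose limma called 0 of the 40 genes, and 0.172% of all genes (0.153% higher and 0.0191% lower). At an unadjusted p under 0.05 there were 10, all lower, against 2640 of all 26123 genes tested, counted in either direction. The median log2 was -0.45, against 0.02 over all genes, and 28 of the 40 were below 0 on both arrays and 4 above 0 on both, against 29% and 30% of all genes. The lowest adjusted p was that of Cenpa (0.187).

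At 3.5 h the low dose gave 5 of 40 genes past the threshold, Cdkn1a and Mki67 higher and Cdk4, Cdc25b and Cenpa lower, with 4.88% of all genes called (2.73% higher and 2.15% lower). The median log2 of the 40 was -0.34, against 0.00 over all genes, and 18 of 40 were below 0 on both arrays, against 32.8% of all genes. Without replicate 1, the array with the repeated value, 0 were called (18 at an unadjusted p under 0.05). Without replicate 2 there were 8, 7 of them higher, with 3 of the 5 calls among them (Cdkn1a, Mki67 and Cdc25b). The downward median rests on replicate 2, since the array median of the 40 genes was -0.69 on replicate 2 and 0.01 on replicate 1.

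The high dose at 3.5 h changed 16 of the 40 genes, at 21.9% of all genes called (10.2% higher and 11.7% lower). The 4 that rose were Ccnd2, Cdkn1a, Mki67 and Ube2c, and the 12 that fell were Ccnd1, Cdk2, Cdk4, Mcm2, Mcm3, Mcm6, Mcm7, Pcna, Rrm1, Cdc25b, Top2a and Cenpa. The median was log2 -0.67, against -0.03 over all genes, and 25 of 40 were below 0 on both arrays, against 36.8%. It was -0.43 where dim genes take a bound from the matched files under loess, so processing changes with the bound. Without replicate 1 there were 3 calls (Cdk4, Cdkn1a and Cdc25b), and without replicate 2 there were 7 (Ccnd1, Ccnd2, Cdk4, Cdkn1a, Cdc25b, Mki67 and Cenpa).

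In all, 20 of the 40 genes passed in at least 1 of these 4 comparisons, against 29.4% of all genes. Cdk4, Cdkn1a, Mki67 and Cenpa passed in 3 of them, which 1.38% of all genes did. On all 8 arrays 13 of the 40 were below 0 (7.89% of all genes), and 2, Mki67 and Ube2c, were above 0 (7.51% of all genes).

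**Figure D1:**
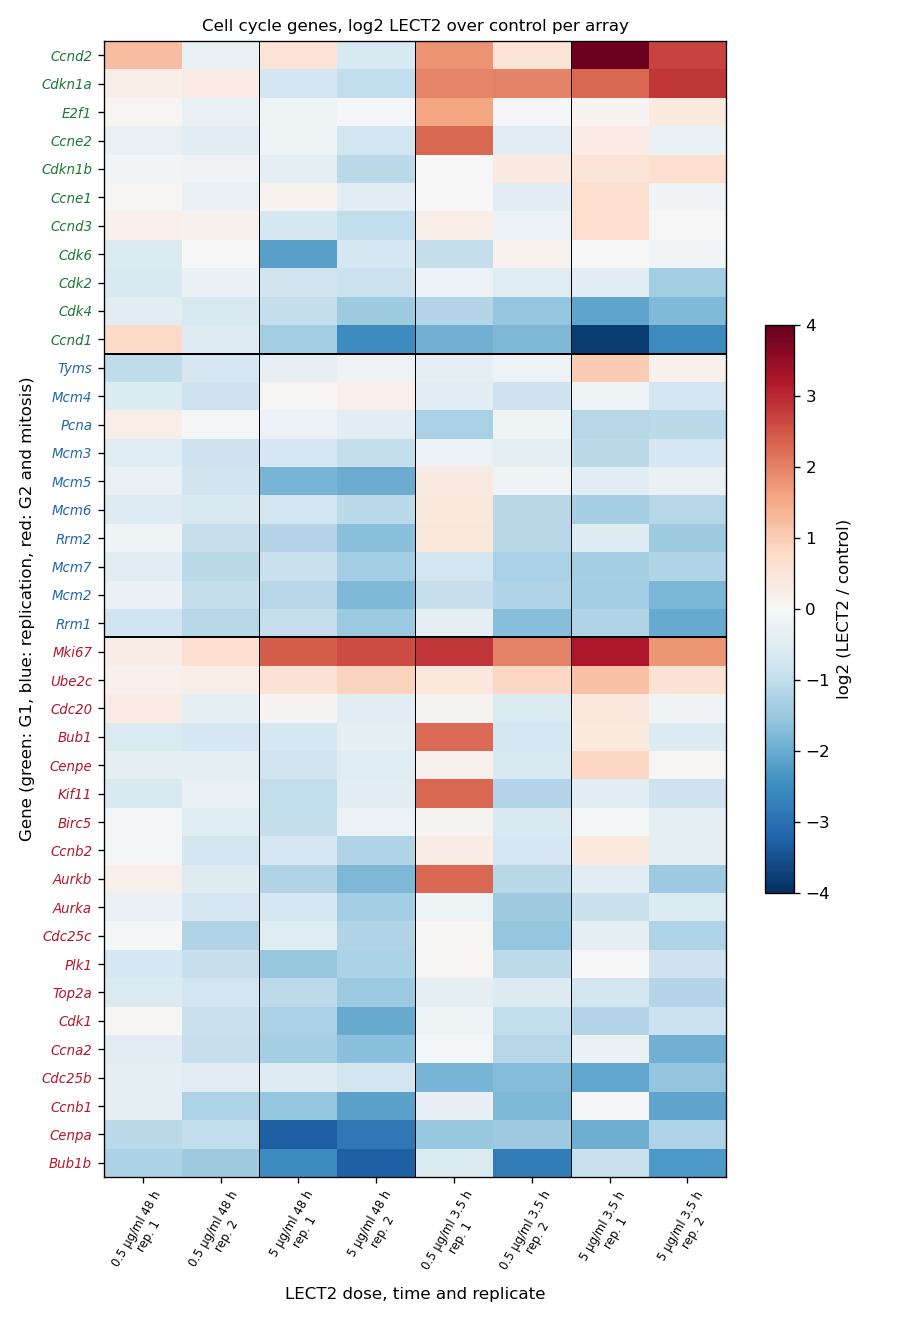
Heat map of log2 LECT2 over control for the 40 genes (rows, coloured by group and ordered by mean) on the 8 arrays (columns, by time, dose in µg/ml and replicate). Blue, lower with LECT2, covers most of the replication and mitosis rows at 5 µg/ml after 48 h, Mki67 and Ube2c are red on every array, and the red cells of Ccne2, Bub1, Kif11 and Aurkb stand in the column that holds the repeated value.

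The G1 genes split at 3.5 h, where some rose and others fell, while at the high dose after 48 h all 11 means were below 0. Of 11 genes, 0 rose and 3 fell at the high dose after 48 h, 1 rose and 1 fell at the low dose at 3.5 h, and 2 rose and 3 fell at the high dose at 3.5 h. The shares of all genes called in these groups were 11.2%, 4.88% and 21.9%, in the same order. Cyclin D1 was lower and cyclin D2 higher at the high dose at 3.5 h, as was p21. The set's median after 48 h was log2 -0.12 and -0.83, and 0.02 and 0.24 at 3.5 h (in the order low dose, high dose). The 3.5 h medians were at -0.32 and -0.37 with median centring of the matched files, which moves the median of all genes to -0.13 and -0.26. With the repeated values left out the low dose median was -0.23. On single arrays of the high dose at 3.5 h the set's median was 0.33 and -0.11, so its sign differed between the replicates.

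Ccnd1, the D cyclin that most growth factors induce, had log2 values of 0.78 and -0.51 at the low dose and -1.40 and -2.52 at the high dose after 48 h. At 3.5 h the values were -1.93 and -1.80 at the low dose and -3.80 and -2.53 at the high dose. So 7 of 8 arrays were below 0. It fell 3.89-fold at the high dose and 48 h (log2 -1.96 ± 0.43, adjusted p = 0.0308) and 8.96-fold at the high dose and 3.5 h (-3.16 ± 0.43, adjusted p = 0.0035), while its low dose mean at 3.5 h, -1.86 ± 0.43, did not pass (adjusted p = 0.0533). In the scanner files matched to the deposited values, the high dose at 3.5 h had processed signals of 167.0 and 175.7 with LECT2, the first not well above background, against 2785 and 1087 in the control.

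Ccnd2, a D cyclin with the same kinase partners, stood at 1.24 and -0.30 at the low dose and 0.56 and -0.60 at the high dose after 48 h, so the arrays of each group fell on both sides of 0. At 3.5 h it stood at 1.79 and 0.54 at the low dose and 3.91 and 2.72 at the high dose. It rose 9.96-fold at the high dose (log2 3.32 ± 0.51, adjusted p = 0.00515), where its signals were 21950 and 13650 with LECT2 against 1330 and 2004 in the control. The low dose value of 1.17 ± 0.51 was not past the threshold (adjusted p = 0.23). Ccnd3, the third D cyclin, was near 0 except at the high dose after 48 h, where both arrays were lower (-0.72 and -0.99, mean -0.85 ± 0.25) without passing (adjusted p = 0.0683). Its other values were 0.21 and 0.17 at the low dose and 48 h, 0.28 and -0.23 at the low dose and 3.5 h, and 0.67 and 0.00 at the high dose and 3.5 h.

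Cdkn1a, the inhibitor p21 and a target of p53, was above 0 at both times at the low dose, and at the high dose was above 0 at 3.5 h and below 0 after 48 h. Its values were 0.25 and 0.34 at the low dose and -0.77 and -0.99 at the high dose after 48 h, against 1.94 and 1.97 at the low dose and 2.29 and 2.85 at the high dose at 3.5 h. It fell at the high dose after 48 h (log2 -0.88 ± 0.22, adjusted p = 0.0447), and rose at 3.5 h, 3.88-fold at the low dose (1.96 ± 0.22, adjusted p = 0.00629) and 5.93-fold at the high dose (2.57 ± 0.22, adjusted p = 0.000888). The call at 48 h held in only 6 of 13 alternatives, over which its log2 ranged from -1.52 to 1.64. It ended, for example, with array medians set to 0 (adjusted p = 0.0509). A dimmer second probe had log2 means of 0.77 and -0.03 at 48 h and 0.58 and 0.93 at 3.5 h (in the order low dose, high dose). It thus did not show the fall at the high dose after 48 h. The related inhibitor Cdkn1b had -0.10 and -0.15 at the low dose and -0.35 and -1.09 at the high dose after 48 h, and 0.00 and 0.36 at the low dose and 0.54 and 0.67 at the high dose at 3.5 h. None of its means passed (adjusted p from 0.0986 to 0.915).

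Cdk4, the kinase partner of D cyclins, was below 0 on all 8 arrays. Values were -0.45 and -0.63 at the low dose and -0.94 and -1.42 at the high dose after 48 h, and -1.19 and -1.53 at the low dose and -2.11 and -1.77 at the high dose at 3.5 h. It fell to 44.1% of control at the high dose after 48 h (log2 -1.18 ± 0.23, adjusted p = 0.0222), to 39.0% at the low dose at 3.5 h (-1.36 ± 0.23, adjusted p = 0.0204) and to 26.1% at the high dose at 3.5 h (-1.94 ± 0.23, adjusted p = 0.00233). All 3 Cdk4 probes were below 0 in the 4 groups. Cdk2, the partner of E cyclins, was also below 0 on all 8 arrays. It had -0.61 and -0.27 at the low dose and -0.81 and -0.85 at the high dose after 48 h, and -0.22 and -0.48 at the low dose and -0.46 and -1.39 at the high dose at 3.5 h, and passed in that last group only (-0.93 ± 0.27, adjusted p = 0.0442). When 1 replicate of the group was left out, the G1 calls that still passed were those of Cdk4 and Cdkn1a at the high dose and 3.5 h (in both fits), and, without replicate 2, those of Ccnd1 and Ccnd2 at the high dose and Cdkn1a at the low dose, all at 3.5 h.

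The other G1 genes gave no call. Cdk6, the second D cyclin kinase, had its lowest mean at the high dose after 48 h (-1.43 ± 0.40, adjusted p = 0.0606), from arrays at -2.18 and -0.68. Ccne1, an E cyclin, had means from -0.23 to 0.25, and E2f1, the transcription factor that these kinases free from its repressor, had means from -0.13 to 0.76. A dimmer second Ccne1 probe had means of -0.54 and -1.15 at 48 h and -0.07 and 0.48 at 3.5 h (in the order low dose, high dose). The E2f1 mean of 0.76, at the low dose at 3.5 h, came from 1.58 on replicate 1 and -0.05 on replicate 2. The scanner file matched to that replicate 1 had E2f1 at 412.3 with LECT2 against 341.7 in the control. Ccne2, the other E cyclin, was not well above background in either channel at the low dose and 3.5 h, and its value there on replicate 1 is the repeated one.

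**Figure D2:**
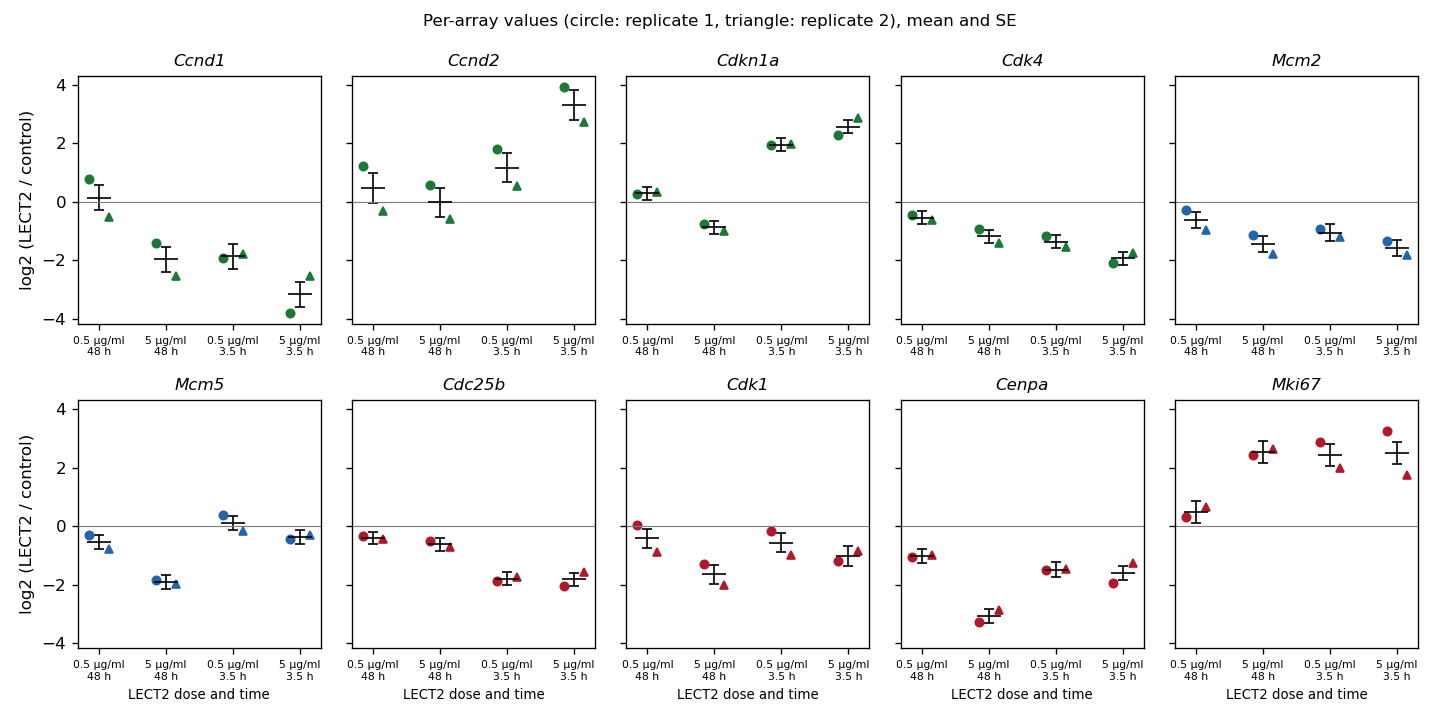
Log2 LECT2 over control of 10 genes by time and dose, with replicate 1 as a circle, replicate 2 as a triangle, and the mean ± SE as a bar. Ccnd2 and Cdkn1a sit above 0 at 5 µg/ml and 3.5 h (means 3.32 and 2.57) and near or below 0 at 5 µg/ml and 48 h (-0.02 and -0.88), while Mcm5 and Cenpa reach their lowest values at 5 µg/ml after 48 h (-1.92 and -3.07).

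Every replication gene that passed had fallen, and Mcm4 after 48 h and Tyms at 3.5 h were above 0 on both arrays of the high dose. Of 10 genes 3 fell and 0 rose at the high dose after 48 h, and 6 fell and 0 rose at the high dose at 3.5 h, while 0 passed at the low dose at 3.5 h. The shares of all genes called in these groups were 11.2%, 21.9% and 4.88%, in the same order. The median after 48 h was log2 -0.64 and -1.03, and -0.49 and -1.03 at 3.5 h (in the order low dose, high dose), and 9 of 10 genes were below 0 on both arrays at each dose after 48 h. At the low dose and 3.5 h the single arrays had medians of -0.37 (replicate 1) and -0.97 (replicate 2). No call in this set passed in either fit that left out 1 replicate of its group.

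Mcm2, a helicase subunit, had -0.26 and -0.96 at the low dose and -1.13 and -1.78 at the high dose after 48 h, and -0.91 and -1.19 at the low dose and -1.35 and -1.83 at the high dose at 3.5 h, all below 0. It fell to 36.5% of control at the high dose after 48 h (log2 -1.46 ± 0.28, adjusted p = 0.0208) and to 33.2% at 3.5 h (-1.59 ± 0.28, adjusted p = 0.0081). Mcm7, another subunit, was below 0 on all 8 arrays too, with -0.43 and -1.07 at the low dose and -0.90 and -1.40 at the high dose after 48 h, and -0.73 and -1.31 at the low dose and -1.32 and -1.20 at the high dose at 3.5 h. Its means at the high dose were -1.15 ± 0.26 after 48 h (adjusted p = 0.0351) and -1.26 ± 0.26 at 3.5 h (adjusted p = 0.0153).

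Mcm5, also of the helicase, was called at 48 h alone. It stood at -0.29 and -0.80 at the low dose and at -1.85 and -1.98 at the high dose after 48 h, against 0.37 and -0.15 at the low dose and -0.43 and -0.30 at the high dose at 3.5 h, so its 48 h high dose arrays lie apart from the other 6. It fell 3.78-fold there (log2 -1.92 ± 0.24, adjusted p = 0.00639), and its 3.5 h means did not pass (adjusted p = 0.841 and 0.3). Mcm3 and Mcm6 passed at the high dose at 3.5 h alone. Mcm3 had -1.09 and -0.66 there (-0.88 ± 0.22, adjusted p = 0.0305), with -0.49 and -0.84 at the low dose and -0.68 and -0.97 at the high dose after 48 h, and -0.24 and -0.40 at the low dose at 3.5 h. Mcm6 had -1.34 and -1.14 (-1.24 ± 0.35, adjusted p = 0.0411), with -0.53 and -0.61 at the low dose and -0.72 and -1.09 at the high dose after 48 h, and 0.44 and -1.12 at the low dose at 3.5 h. The deposited 0.44 is on replicate 1, and the scanner file of that array has Mcm6 lower with LECT2 (313.5 against 655.3 in the control). Mcm4, the remaining subunit listed, was the highest of the set at the high dose after 48 h at 0.06 and 0.22. The other values were -0.53 and -0.83 at the low dose after 48 h, and -0.43 and -0.84 at the low dose and -0.21 and -0.73 at the high dose at 3.5 h, all below 0.

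Rrm1, the large subunit of ribonucleotide reductase, was below 0 on all 8 arrays, at -0.79 and -1.15 at the low dose and -0.94 and -1.49 at the high dose after 48 h, and -0.35 and -1.71 at the low dose and -1.20 and -2.03 at the high dose at 3.5 h. It passed in the last group (log2 -1.62 ± 0.37, adjusted p = 0.0203). Its partner subunit Rrm2 gave no call (means from -1.43 to -0.33). Pcna was at 0.28 and -0.06 at the low dose and -0.24 and -0.41 at the high dose after 48 h, and at -1.29 and -0.16 at the low dose and -1.13 and -1.07 at the high dose at 3.5 h, where it fell to 46.6% of control (-1.10 ± 0.29, adjusted p = 0.0335). Tyms was the one replication gene with both arrays above 0 at the high dose at 3.5 h, at 1.01 and 0.16 (0.59 ± 0.26, adjusted p = 0.14). Its other arrays were at -1.01 and -0.66 at the low dose and -0.34 and -0.20 at the high dose after 48 h, and at -0.38 and -0.21 at the low dose at 3.5 h.

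Most G2 and mitosis genes that passed had fallen, and Mki67 had risen. Of 19 genes 1 rose and 5 fell at the high dose after 48 h, against 11.2% of all genes called. At the low dose after 48 h 0 passed, against 0.172%. At 3.5 h 1 rose and 2 fell at the low dose, against 4.88%, and 2 rose and 3 fell at the high dose. This last count is near the 21.9% of all genes called there. The median after 48 h was log2 -0.46 and -0.93, and -0.48 and -0.71 at 3.5 h (in the order low dose, high dose). With dim genes at a bound from the matched files under loess, it was -0.85 at the high dose after 48 h and -0.41 at both doses at 3.5 h. Genes dim in both channels were left out there, 2 of them at the low dose at 3.5 h. Bound and processing change together in these medians. At the low dose and 3.5 h the single arrays differed, with a median of 0.05 on replicate 1 (11 of 19 genes above 0) and -1.04 on replicate 2 (17 of 19 below 0), so the lower median there rests on 1 array.

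Cenpa, the histone that marks centromeres, was below 0 on all 8 arrays. It stood at -1.06 and -0.998 at the low dose and -3.27 and -2.87 at the high dose after 48 h, and at -1.51 and -1.47 at the low dose and -1.96 and -1.25 at the high dose at 3.5 h. After 48 h at the high dose it fell to 11.9% of control (log2 -3.07 ± 0.24, adjusted p = 0.00228), with signals of 122.4 and 228.1 with LECT2 against 1178 and 1668 in the control. At 3.5 h it fell to 35.7% at the low dose (-1.49 ± 0.24, adjusted p = 0.0184) and 33.0% at the high dose (-1.60 ± 0.24, adjusted p = 0.00502). The low dose value after 48 h, -1.03 ± 0.24, did not pass (adjusted p = 0.187).

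Mki67, the gene of the Ki-67 protein that coats mitotic chromosomes and is widely used as a marker of dividing cells, was above 0 on all 8 arrays. It stood at 0.30 and 0.66 at the low dose and 2.43 and 2.62 at the high dose after 48 h, and at 2.87 and 1.98 at the low dose and 3.24 and 1.76 at the high dose at 3.5 h. It rose 5.75-fold at the high dose after 48 h (log2 2.52 ± 0.37, adjusted p = 0.0109), 5.36-fold at the low dose at 3.5 h (2.42 ± 0.37, adjusted p = 0.0157) and 5.67-fold at the high dose at 3.5 h (2.50 ± 0.37, adjusted p = 0.00485). At the high dose after 48 h its signals were 6391 and 8392 with LECT2 against 1188 and 1365 in the control, well above background in both channels. A second Mki67 probe gave means of 0.45 and 2.98 at 48 h and 2.28 and 2.76 at 3.5 h (in the order low dose, high dose).

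Ube2c, which tags mitotic cyclins for destruction, was the other gene above 0 on all 8 arrays. The values were 0.22 and 0.26 at the low dose and 0.57 and 0.90 at the high dose after 48 h, and 0.42 and 0.81 at the low dose and 1.16 and 0.57 at the high dose at 3.5 h. It rose in the last group (log2 0.87 ± 0.24, adjusted p = 0.0387). Its second, dimmer probe was below 0 in all 4 groups (means of -0.60 and -1.45 at 48 h and -0.46 and -0.51 at 3.5 h). With the median over both probes the call ended (log2 0.18, adjusted p = 0.657, with alternatives spanning 0.0144 to 0.814), so the direction of Ube2c depends on the probe.

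**Figure D3:**
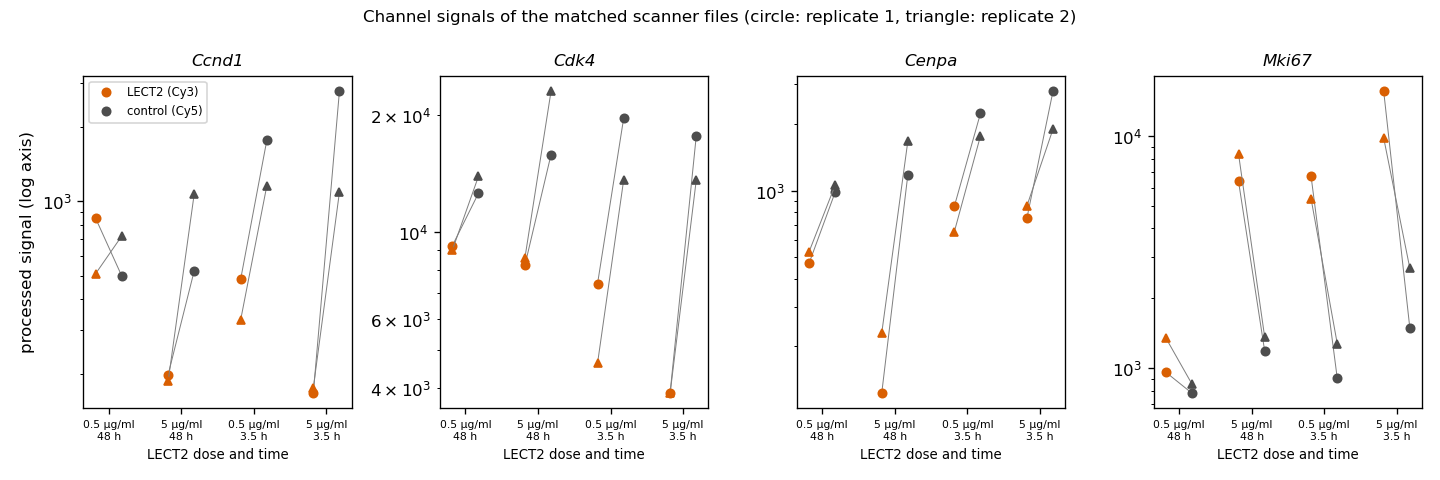
Processed signals (log axis, arbitrary scanner units) of Ccnd1, Cdk4, Cenpa and Mki67 in the matched scanner files, LECT2 channel in orange and control channel in grey, joined for each array, by time and dose. At 5 µg/ml and 48 h Cenpa lies at 122.4 and 228.1 with LECT2 and 1178 and 1668 in the control, and Mki67 at 6391 and 8392 with LECT2 and 1188 and 1365 in the control.

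Cdk1, the kinase that starts mitosis, had 0.04 and -0.88 at the low dose and -1.30 and -2.01 at the high dose after 48 h, and -0.16 and -0.98 at the low dose and -1.18 and -0.86 at the high dose at 3.5 h. It fell 3.15-fold at the high dose after 48 h (log2 -1.65 ± 0.33, adjusted p = 0.0227) and missed the threshold at 3.5 h (-1.02 ± 0.33, adjusted p = 0.0604). Of its 2 other probes 1 gave similar means and the other, the dimmest, was above 0 in 3 of the 4 groups (0.58 at the low dose after 48 h, 0.36 at the low dose after 3.5 h and 1.28 at the high dose after 3.5 h) and below 0 at the high dose after 48 h (-0.47). Ccnb1, the B cyclin that binds Cdk1, was below 0 on all 8 arrays but spread between the replicates. It had -0.35 and -1.23 at the low dose and -1.53 and -2.14 at the high dose after 48 h, and -0.34 and -1.79 at the low dose and -0.04 and -2.12 at the high dose at 3.5 h. None of its means passed, the lowest being -1.84 ± 0.53 at the high dose after 48 h (adjusted p = 0.0664). One of its other probes, too, went the other way at the high dose at 3.5 h (0.41).

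Cdc25b, a phosphatase that switches Cdk1 on, fell at 3.5 h. It stood at -0.35 and -0.46 at the low dose and -0.53 and -0.73 at the high dose after 48 h, against -1.87 and -1.74 at the low dose and -2.07 and -1.58 at the high dose at 3.5 h. The 3.5 h means were -1.80 ± 0.22 at the low dose (28.7% of control, adjusted p = 0.00772) and -1.82 ± 0.22 at the high dose (28.3%, adjusted p = 0.00233), and those at 48 h did not pass (adjusted p = 0.594 and 0.103).

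Late calls came from 3 more mitosis genes. Plk1, a kinase of mitotic entry and spindle assembly, had -0.68 and -0.93 at the low dose and -1.52 and -1.26 at the high dose after 48 h, and 0.04 and -1.04 at the low dose and -0.01 and -0.82 at the high dose at 3.5 h. It fell at the high dose after 48 h (log2 -1.39 ± 0.32, adjusted p = 0.0344), a call that ended under loess of the matched files (-0.99, adjusted p = 0.0566, with alternatives spanning 0.00442 to 0.482). Top2a, the topoisomerase that untangles chromosomes, was below 0 on all 8 arrays, at -0.57 and -0.77 at the low dose and -1.05 and -1.50 at the high dose after 48 h, and at -0.39 and -0.56 at the low dose and -0.75 and -1.18 at the high dose at 3.5 h. It fell at the high dose after 48 h (-1.27 ± 0.23, adjusted p = 0.0177) and at 3.5 h (-0.96 ± 0.23, adjusted p = 0.0235), and its LECT2 signals were well above background on 1 of 2 arrays at each time. Under loess of the matched files neither call held, with -0.77 after 48 h (adjusted p = 0.0523, alternatives from 0.00906 to 0.482) and -0.40 at 3.5 h (adjusted p = 0.186, alternatives from 0.0127 to 0.344). At 3.5 h it also ended with processed signals (-0.73, adjusted p = 0.123) and with median centring (-0.44, adjusted p = 0.174).

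Bub1b, a spindle checkpoint gene, was dim. Its values were -1.27 and -1.43 at the low dose and -2.54 and -3.26 at the high dose after 48 h, and -0.57 and -2.79 at the low dose and -0.89 and -2.28 at the high dose at 3.5 h. At the high dose after 48 h the mean of the deposited values was log2 -2.90 ± 0.53 (adjusted p = 0.0185). LECT2 signals there were not well above background on either array, so the size of the fall is not known. The bound used for dim genes is taken from the matched files under loess. For this bound each dim signal counts as the weakest signal called well above background on its array, or as its own value if higher. For Bub1b in this group its own values stood. Its bound, 1.76-fold lower than in the control, is thus the loess estimate itself and sets no limit. With the matched files under loess the mean was -0.81 and did not pass (adjusted p = 0.0703, with alternatives spanning 0.00673 to 0.451). When a replicate of the group was left out, the mitosis calls that still passed were that of Cdc25b at the high dose and 3.5 h in both fits, and, without replicate 2, those of Cdc25b and Mki67 at the low dose and 3.5 h, Mki67 and Cenpa at the high dose and 3.5 h, and Cenpa at the high dose and 48 h.

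Besides Ccnb1, the mitosis genes without a call were Ccna2, Ccnb2, Cdc20, Cdc25c, Cenpe, Bub1, Aurka, Aurkb, Birc5 and Kif11. At the high dose after 48 h each of them had a mean below 0, from -1.50 (Aurkb and Ccna2, the A cyclin) to -0.18 (Cdc20, an activator of the complex that ends mitosis). For Birc5 the size depends on the probe, with -0.58 for the brightest and -1.41 and -1.70 for the dimmer ones there. Aurka and Aurkb, the Aurora kinases, were at -1.02 ± 0.33 and -1.50 ± 0.69 (adjusted p = 0.0875 and 0.197). Bub1, Kif11, a spindle motor, and Aurkb had LECT2 signals at background on both arrays at each dose at 3.5 h, so no level with LECT2 is known there.

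The wider pathway was read from 3 lists of further genes. Of 29 G1 and checkpoint genes tested, 6 rose and 2 fell at the high dose after 48 h, 0 passed at the low dose after 48 h, 3 rose and 2 fell at the low dose at 3.5 h, and 4 rose and 5 fell at the high dose at 3.5 h. The shares of all genes called, for these 3 lists alike, were 11.2% at the high dose and 0.172% at the low dose after 48 h, and 4.88% at the low dose and 21.9% at the high dose at 3.5 h. Gadd45b, a stress gene that slows the cycle, rose at 3.5 h, by log2 2.42 ± 0.21 and 3.15 ± 0.21 (in the order low dose, high dose, adjusted p = 0.00275 and 0.000497), and Cdkn2c, an inhibitor of Cdk4 and Cdk6, fell by 1.62 ± 0.22 and 2.07 ± 0.22 (adjusted p = 0.0112 and 0.00164). Rbl1, a relative of the retinoblastoma protein, rose at the high dose at 48 h and 3.5 h (2.00 ± 0.28 at each, adjusted p = 0.00895 and 0.00367). The p53 gene Trp53 fell at the high dose after 48 h (-1.26 ± 0.21, adjusted p = 0.015).

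Of 37 further replication genes, 1 rose and 4 fell at the high dose after 48 h, 0 passed at the low dose after 48 h, 1 rose and 2 fell at the low dose at 3.5 h, and 2 rose and 13 fell at the high dose at 3.5 h. The list's median after 48 h was log2 -0.23 and -0.39, and -0.48 and -0.62 at 3.5 h (in the order low dose, high dose). Gmnn, which blocks a second round of origin licensing, fell by 3.16 ± 0.41 at the high dose at 3.5 h (adjusted p = 0.00289), and Cdc6, which loads the helicase, fell at the high dose at 48 h (-1.43 ± 0.37, adjusted p = 0.047) and 3.5 h (-1.96 ± 0.37, adjusted p = 0.0103). Tk1, thymidine kinase, fell at 48 h too (-1.90 ± 0.39, adjusted p = 0.0262). Against this direction, Dut rose at the high dose at 3.5 h (2.00 ± 0.42, adjusted p = 0.0156). Pola2 rose at 3.5 h at the low dose (1.28 ± 0.25, adjusted p = 0.0347) and high dose (1.34 ± 0.25, adjusted p = 0.0107). Of 34 further mitosis genes tested of 35, 0 rose and 5 fell at the high dose after 48 h, 0 passed at the low dose after 48 h, 0 rose and 3 fell at the low dose at 3.5 h, and 1 rose and 7 fell at the high dose at 3.5 h, 8 in all, which is near the 21.9% of all genes. Cenpn, a centromere protein that binds Cenpa nucleosomes, fell at the high dose after 48 h (-1.75 ± 0.28, adjusted p = 0.0133), as did the securin gene Pttg1 (-1.48 ± 0.30, adjusted p = 0.0247). Wee1, a kinase that holds Cdk1 off, fell at 3.5 h at the low dose (-1.76 ± 0.36, adjusted p = 0.037) and high dose (-2.49 ± 0.36, adjusted p = 0.00426).

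The 2 times differed for 4 genes at the high dose. By limma's test of 48 h minus 3.5 h, Ccnd2, Cdkn1a, Mcm5 and Cenpa were lower at 48 h and 0 were higher, with 8.31% of all genes called (4.52% higher and 3.79% lower). The Cdkn1a mean was log2 -0.88 at 48 h, against 2.57 at 3.5 h (difference -3.45 ± 0.31, adjusted p = 0.00815), and that of Ccnd2 was -0.02 at 48 h, against 3.32 at 3.5 h (-3.33 ± 0.72, adjusted p = 0.0356). Mcm5 was at -1.92 at 48 h, against -0.36 at 3.5 h (-1.55 ± 0.33, adjusted p = 0.0354), and Cenpa at -3.07 at 48 h, against -1.60 at 3.5 h (-1.47 ± 0.34, adjusted p = 0.0435). None of the 4 differences passed without replicate 1 or without replicate 2 of both groups. That of Cenpa was -0.68 with median centring of the matched files (adjusted p = 0.236, with alternatives spanning 0.0243 to 1.00). Cdc25b was at -0.63 at 48 h, against -1.82 at 3.5 h, a difference of 1.19 ± 0.31 that was not past the threshold (adjusted p = 0.0543). The Mcm5 difference ended with median centring of the matched files (-1.10, adjusted p = 0.0643) and with no filter (adjusted p = 0.0656).

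At the low dose limma called 0 of the 40 genes for 48 h minus 3.5 h. Of all genes it called 0.0995% (0.0153% higher and 0.0842% lower). An unadjusted p under 0.05 was found for 2718 of all 26123 genes tested. It was found for 5 of the 40, a share near that of all genes. The largest of these differences by its test was that of Cdkn1a, at 0.29 at 48 h, against 1.96 at 3.5 h (-1.66 ± 0.31, adjusted p = 0.121).

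**Figure D4:**
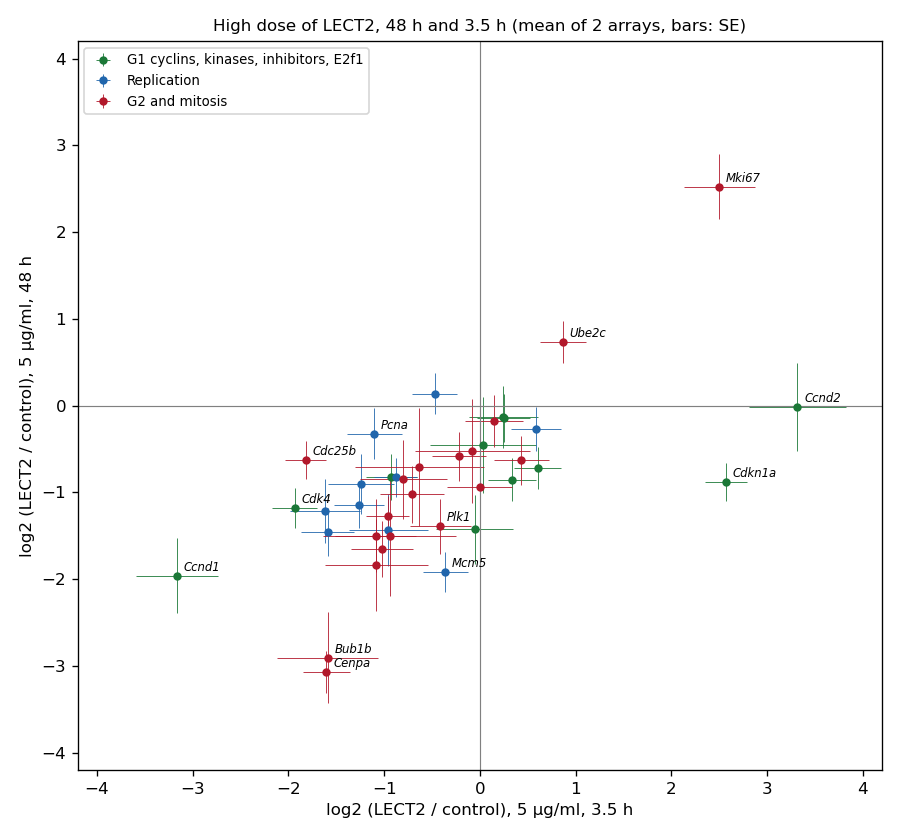
Log2 LECT2 over control at 5 µg/ml after 48 h (vertical axis) against 3.5 h (horizontal axis) for the 40 genes, means of 2 arrays with SE bars, coloured by group, with 12 genes labelled. Most points lie in the lower left part, Mki67 lies at 2.52 and 2.50 in the upper right, and Ccnd2 and Cdkn1a lie to the right of 0 at 3.5 h and at or under 0 at 48 h.

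Doses could not be told apart gene by gene. For high minus low dose limma called 0 of the 40 genes at 48 h and 0 at 3.5 h. It called 0% of all genes at both times. At an unadjusted p under 0.05 there were 8 of the 40 at 48 h and 2 at 3.5 h. Of all 26123 genes tested, 2737 were under it at 48 h and 2046 at 3.5 h. The share of the 40 was thus above that of all genes at 48 h and below it at 3.5 h. After 48 h the means of 35 of the 40 were further down at the high dose, with a median difference of log2 -0.46 (-0.04 over all genes). Cenpa was at -1.03 at the low dose and -3.07 at the high dose (difference -2.04 ± 0.34, adjusted p = 0.185), and Mki67 at 0.48 and 2.52 (2.04 ± 0.53, adjusted p = 0.314). At 3.5 h the widest gap was that of Ccnd2, at 1.17 and 3.32 (2.15 ± 0.72, adjusted p = 0.593). A p that misses the threshold does not show that the doses act alike.

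Markers of other cell types were read beside these genes. Of 10 macrophage markers 9 were tested, and all 9 were well above background in both channels on all 8 arrays. Their medians lay between log2 -0.33 and -0.08, and at the high dose at 3.5 h Lyz2 (-2.01 ± 0.31, adjusted p = 0.00531) and Csf1r (-1.03 ± 0.31, adjusted p = 0.0495) fell. Gata6, a transcription factor of resident peritoneal macrophages, was below 0 on all 8 arrays and fell at the high dose after 48 h (-1.35 ± 0.21, adjusted p = 0.0124) and at the low dose at 3.5 h (-1.03 ± 0.21, adjusted p = 0.0379), where Timd4 rose (1.11 ± 0.23, adjusted p = 0.0396). Of 8 markers of mesothelium and fibroblasts, cells that also divide in serum, 3 were well above background in both channels on all 8 arrays and none was dim on all. Their medians were -0.80 and -0.76 at 48 h and -1.07 and -0.80 at 3.5 h (in the order low dose, high dose), and Wt1 and Pdgfra fell at the high dose after 48 h (-1.68 ± 0.20 and -3.51 ± 0.27, adjusted p = 0.0057 and 0.00228), and also at both doses at 3.5 h. Of all genes 11.2% were called at the high dose after 48 h, and 4.88% and 21.9% at the low and high dose at 3.5 h.

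Summed signals of the 8 mesothelium and fibroblast markers ranged from 24710 to 25850 with LECT2 against 30020 to 51760 in the control at the low dose after 48 h, and from 31640 to 52260 against 34970 to 82990 at the high dose. At 3.5 h they ranged from 8236 to 9758 with LECT2 against 10570 to 37800 in the control at the low dose, and from 14560 to 15800 against 15840 to 39860 at the high dose. The median of these 8 markers was below 0 in each group, as was that of the cell cycle genes, but single markers differed. Msln (mean 0.40) and Krt19 (0.75) were above 0 at the low dose at 3.5 h, and Dcn (0.44) at the high dose after 48 h. The means of Msln and Krt19 rest on replicate 1, the array with the repeated value. Msln had 1.44 there and -0.64 on replicate 2, and Krt19 had 1.69 and -0.19. Gata6, Lyz2 and Csf1r fell in the groups named. What part any of these markers has in the result was not tested. Markers of T and NK cells had medians between 0.42 and 0.67, with summed signals from 7770 to 16630 with LECT2 and from 4897 to 10240 in the control. In each group both summed signals with LECT2 were above both of the control. Most of these markers were higher with LECT2, but not all. Of 9 means 8 were above 0 at the low dose at each time, and 7 at the high dose at 3.5 h. At the low dose after 48 h 8 of 9 were above 0 on both arrays, against 30% of all genes. At the high dose after 48 h 6 of 9 means were above 0 and 3 below. There limma had Cd3g higher (1.30 ± 0.25, adjusted p = 0.0216) and Klrb1c lower (-1.91 ± 0.42, adjusted p = 0.03), with Cd2 at -1.34. The B cell medians lay between -0.65 and 0.10, and those of 5 neutrophil markers between -0.34 and 0.13, 1 of them being well above background throughout.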

How the data were processed

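Each array compared a LECT2 sample (Cy3) with a control sample (Cy5), per the labels, and signals were read with Agilent Feature Extraction 10.7.3.1, per the submitters' processing notes. The deposited value table holds log2 of control over LECT2 for 39428 probes, with its normalization not given in the sources used here, and it was used with the sign reversed. The scanner files hold, per the file headers, median intensity and background of each spot, processed intensity after background subtraction and dye normalization, flags for spots well above background, and a log10 ratio (Cy5 over Cy3), and served for the filter, the channel signals and alternatives.

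A probe was kept where at least 2 of 8 arrays had it well above background in Cy3 or Cy5 (31587 of 39429), and the brightest probe stood for each gene. Symbols came from RefSeq accessions in the scanner files through a table of GRCm38.p6, which named 26412 probes. Group means over all 8 arrays were fitted with limma 3.58.1 in R 4.3.3 (4 residual degrees of freedom), with Benjamini-Hochberg adjustment over 26123 genes and a threshold of 0.05. The number of arrays, 2 per group, limits the precision. The fit was tested on simulated data.

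Genes named with values per array are those past the threshold in any comparison, the highest and lowest of each set in each effect, and Ccnd1, Ccnd2, Ccnd3, Cdkn1a, Cdkn1b, Cdk1, Ccnb1, Mki67, Cenpa, Pcna and Mcm2. Members and lists were chosen with earlier results of these data known. Alternatives were matched and recorded scanner files (normexp with offset 50 and loess), processed signals, array medians set to 0, median centring, other probe filters, the median over probes, the replicate number as a block, a trended robust variance and leaving out each replicate. Setting the repeated value to missing was chosen after seeing the data.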

Additional observations from a re-analysis of the deposited data

Results flagged for a closer look

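The effect of the high dose differed between 48 h and 3.5 h for 4 of the 40 genes by limma's test of the difference, adjusted over all 26123 genes. This count is near the share of all genes called, 8.31% (4.52% higher and 3.79% lower), though all 4 genes were lower. Cdkn1a was lower by log2 -3.45 (adjusted p = 0.00815), Ccnd2 by -3.33 (adjusted p = 0.0356), Mcm5 by -1.55 (adjusted p = 0.0354) and Cenpa by -1.47 (adjusted p = 0.0435), each as 48 h minus 3.5 h. Both arrays at 48 h lay below both arrays at 3.5 h for each of the 4 genes. The genes were chosen by this same difference, and the share of all genes with such arrays was not counted. Time and slide cannot be told apart in the matched files, and the deposited values of the 2 times were also processed differently. With 2 arrays per group, single arrays were not tested as outliers.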

How the results depend on the processing

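With scanner files taken as recorded, limma called 0 of the 40 genes in each of the 8 comparisons, against 12 at the high dose after 48 h (17 at an unadjusted p under 0.05 with the recorded files), 5 at the low dose at 3.5 h (4), 16 at the high dose at 3.5 h (23) and 4 for 48 h minus 3.5 h at the high dose (0). There Cdkn1a at the high dose after 48 h was at log2 1.64, and the 48 h minus 3.5 h differences at the high dose were 1.21 for Ccnd2, 1.04 for Cdkn1a, 0.36 for Mcm5 and 0.85 for Cenpa, all of opposite sign to the deposited values. The high dose after 48 h gave 29 calls with median centring, 19 with the replicate block and from 0 to 1 without a replicate. At 3.5 h the low dose gave 9 calls with the matched files under loess, 11 with median centring, 8 with probes above background on all 8 arrays, 8 with the replicate block and from 0 to 8 without a replicate, and the high dose from 3 to 7 without a replicate. For 48 h minus 3.5 h there was 1 call at the low dose with the matched files under loess, and at the high dose there were 7 with them, 1 with no filter, 7 with probes above background on all 8 arrays and from 0 to 0 without a replicate. The cause was not tested. Median centring moves the median of all genes after 48 h to -0.14 and -0.24 and at 3.5 h to -0.13 and -0.26 (in the order low dose, high dose). The low dose after 48 h and both dose differences gave 0 calls under every alternative run.

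Of 37 calls of named genes, 33 held under loess of the matched files, 36 with processed signals, 32 with median centring, 25 with no filter, 35 with the median over probes, 32 with the trended robust variance and 37 with the repeated value missing. By contrast 3 held without replicate 1, 11 without replicate 2 and 0 with the files as recorded, where 5 changed sign. Those that ended with no filter, at adjusted p from 0.0515 to 0.0780, were Ccnd1, Cdkn1a, Mcm7 and Plk1 at the high dose after 48 h, Cdk2, Mcm3, Mcm6, Pcna and Ube2c at the high dose at 3.5 h, and the time differences of Ccnd2, Mcm5 and Cenpa. Replicate numbers do not show that samples pair: the labels do not tie a number to an experiment, and deviations of same-numbered arrays correlated between -0.06 and 0.47. The replicate block kept all 37 calls and gave 21 of the 40 genes at the high dose and 3.5 h, against 16 without it. Signal limits Bub1, Bub1b, Aurkb, Kif11, Cdc25c and Ccne2, whose LECT2 signals were at background on both arrays of each dose at 3.5 h.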

Other observations

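Control cells of the 2 times differed in signal for some of these genes in the matched files, as values on different slides. The control signal of Rrm2 ranged from 727.4 to 2194 at 48 h, against 156.8 to 473.1 at 3.5 h, and that of Cdk6 from 1188 to 2759 at 48 h, against 693.5 to 859.2 at 3.5 h. Cenpa went the other way, from 985.3 to 1668 at 48 h, against 1757 to 2800 at 3.5 h. No test was run, because slide and time cannot be told apart.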
